A study of Mus musculus with 18 samples.

Results

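Fos, Fosb, Fosl1, Fosl2, Jun, Junb, Jund, Atf3, Egr1 and Ier2 are the AP-1 and immediate early genes described here. They were chosen by symbol, matched through their Ensembl identifiers, and are 10 of the 47643 genes in the deposited count table. All 10 passed the filter on low counts, each with at least 71 counts in every library. RNA came from MPC3, a mouse prostate cancer cell line, with a control group labelled plko and 2 groups in which Rnf185, a ubiquitin ligase gene, was knocked down by a short hairpin RNA. The hairpins are shRNF185.1 and shRNF185.3, and each of the 3 groups holds 6 libraries. The series title concerns control of the collagen gene Col3a1 and cell migration, and the labels name no genotype, drug or time after knockdown. Replicates 1 and 2 of each group belong to batch 1, replicates 3 and 4 to batch 2 and replicates 5 and 6 to batch 3. The labels do not say that replicates came from separate cultures, so p-values measure only the spread between these libraries, which may be technical.

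AP-1 is a dimeric transcription factor built from FOS, JUN and ATF proteins through their basic leucine zippers. Immediate early genes are transcribed within minutes of serum, growth factors or stress, without new protein synthesis, by factors already bound at their promoters such as SRF, ELK and CREB proteins. Their messages are short-lived, so their level can change quickly. FOSL1, FOSL2 and JUND are the longer-lived forms in this family. In carcinoma cells AP-1 is known for driving genes of migration and matrix turnover.

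Total counts ranged from 22027395 to 43379662 per library, and 3 counts correspond to 0.0692 to 0.136 CPM, a limit that covers counting error only. CPM here are the deposited counts scaled by an effective library size. The knocked-down gene, Rnf185, stood at 35.9 ± 1.96 CPM in control, and at 5.81 ± 0.582 and 5.80 ± 0.546 CPM in the shRNF185.1 and shRNF185.3 libraries (SD, n = 6), with a log2 fold change of -2.63 for each hairpin. Among marker lists, the 5 mesenchymal genes, mostly Vim, summed to 3045 to 4014 CPM of the plain library total in control, 3665 to 4185 with shRNF185.1 and 3812 to 4383 with shRNF185.3. Of these Col1a1 and Pdgfrb rose with both hairpins and Pdgfra with shRNF185.3. The 7 epithelial genes summed to 1695 to 2518 in control, 1012 to 1808 with shRNF185.1 and 1165 to 1379 with shRNF185.3. This sum was mostly Krt8, Krt19 and Krt18, at control means of 1197, 443 and 354 CPM. Epcam and Krt5, also on the epithelial list, had at most 7 and 3 counts in a library. Pbsn, a prostate luminal marker, had no count in any library. The 5 leukocyte markers summed to 39.7 to 70.8, mostly Cd14, with Cd3e at 0 and Ptprc at most 3 counts, and the 3 endothelial markers summed to at most 0.719 CPM. In bulk RNA, fewer cells of a type and less RNA per cell cannot be told apart.

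The promoters of Fos, Fosb and Atf3, the members that varied most between libraries, and of Jun, known to act on its own promoter, are shown because induction of these genes is known to run through such elements. RefSeq windows on GRCm38.p6 were found for 7 of the 10 members. Each line is the 250 bases before the transcription start, 5′ to 3′ on the gene's strand, and capitals mark TGACG on either strand (the core of a CREB or ATF site), TGACATCA (the AP-1 variant of the Jun promoter) or TATAAA. The windows are chr12:85473640-85473889 on the plus strand for Fos, and, on the minus strand, chr7:19310046-19310295 for Fosb, chr4:95052223-95052472 for Jun and chr1:191183334-191183583 for Atf3. The Atf3 window lies inside the gene as annotated by GENCODE (chr1:191170296-191218039), so its RefSeq start is not the only annotated start. Bases before any other start were not searched.
Fos: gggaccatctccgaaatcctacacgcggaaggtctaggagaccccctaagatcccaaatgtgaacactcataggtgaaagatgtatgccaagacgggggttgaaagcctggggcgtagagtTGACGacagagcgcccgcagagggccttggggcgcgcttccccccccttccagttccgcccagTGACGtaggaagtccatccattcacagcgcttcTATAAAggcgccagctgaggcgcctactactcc
Fosb: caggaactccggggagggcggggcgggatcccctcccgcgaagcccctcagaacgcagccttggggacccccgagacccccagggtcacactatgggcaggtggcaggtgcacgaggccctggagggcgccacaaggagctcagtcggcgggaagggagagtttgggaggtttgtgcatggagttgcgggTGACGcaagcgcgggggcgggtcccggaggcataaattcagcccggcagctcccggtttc
Jun: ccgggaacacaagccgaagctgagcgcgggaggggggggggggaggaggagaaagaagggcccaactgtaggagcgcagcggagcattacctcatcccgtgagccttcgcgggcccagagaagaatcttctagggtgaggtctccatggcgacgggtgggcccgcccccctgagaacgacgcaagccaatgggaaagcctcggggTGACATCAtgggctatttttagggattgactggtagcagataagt
Atf3: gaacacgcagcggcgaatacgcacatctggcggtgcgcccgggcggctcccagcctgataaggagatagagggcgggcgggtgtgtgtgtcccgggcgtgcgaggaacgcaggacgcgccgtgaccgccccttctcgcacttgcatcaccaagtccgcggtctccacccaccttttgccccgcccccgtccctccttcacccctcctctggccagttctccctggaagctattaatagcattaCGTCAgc

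Motifs were searched on both strands. TGACG lay in 4 of the 7 windows, those of Fos, Fosb, Junb and Atf3, against 17.8% of all 32851 RefSeq windows of this length. In Fos it occurred at 129 to 125 and again at 66 to 62 bases before the start, with TATAAA at 33 to 28 (12.4% of all windows). In Fosb it lay at 60 to 56 and in Atf3, on the other strand, at 7 to 3. The Jun window held TGACATCA at 45 to 38, a motif of 2.93% of windows. The full CRE, TGACGTCA, in which the shorter motif is contained, lay in none of the 7 (1.55% of all). The AP-1 site TGANTCA (6.75% of all) and the CArG box (1.47%) also had no match, which says only that those letters are not in these windows. GCGNGGGCG, the EGR site, lay in the windows of Fosl2 and Fosb (4.7% of all windows). These are matches of letters and not measured binding sites.

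Levels of the members were compared per kilobase of exon, as CPM per kb. Junb led the control group at 152 ± 28.5 CPM per kb, followed by Ier2 at 145 ± 24.0, Jund at 85.6 ± 25.9, Jun at 75.4 ± 14.0 and Egr1 at 66.3 ± 13.9 (SD, n = 6). Fosl1 followed at 47.9 ± 3.63 and Fosl2 at 22.2 ± 3.19 CPM per kb. Fos at 14.2 ± 9.25, Atf3 at 6.94 ± 2.17 and Fosb at 2.65 ± 1.91 were lowest. Library values of each pair of neighbours in this order overlapped, except for Fosl1, at 43.7 to 52.8, and Fosl2, at 19.0 to 28.0 CPM per kb. Among 15327 genes with a length, the control levels per kb ran from percentile 97.9 for Junb to 40.0 for Fosb. The order was the same in both hairpin groups except that Jun (91.5 and 90.2) stood above Jund (81.5 and 79.2 CPM per kb), with overlapping libraries. By mean level per kb the JUN family, Egr1 and Ier2 lay above every FOS gene, and among FOS genes Fosl1 was highest.

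**Figure D1:**
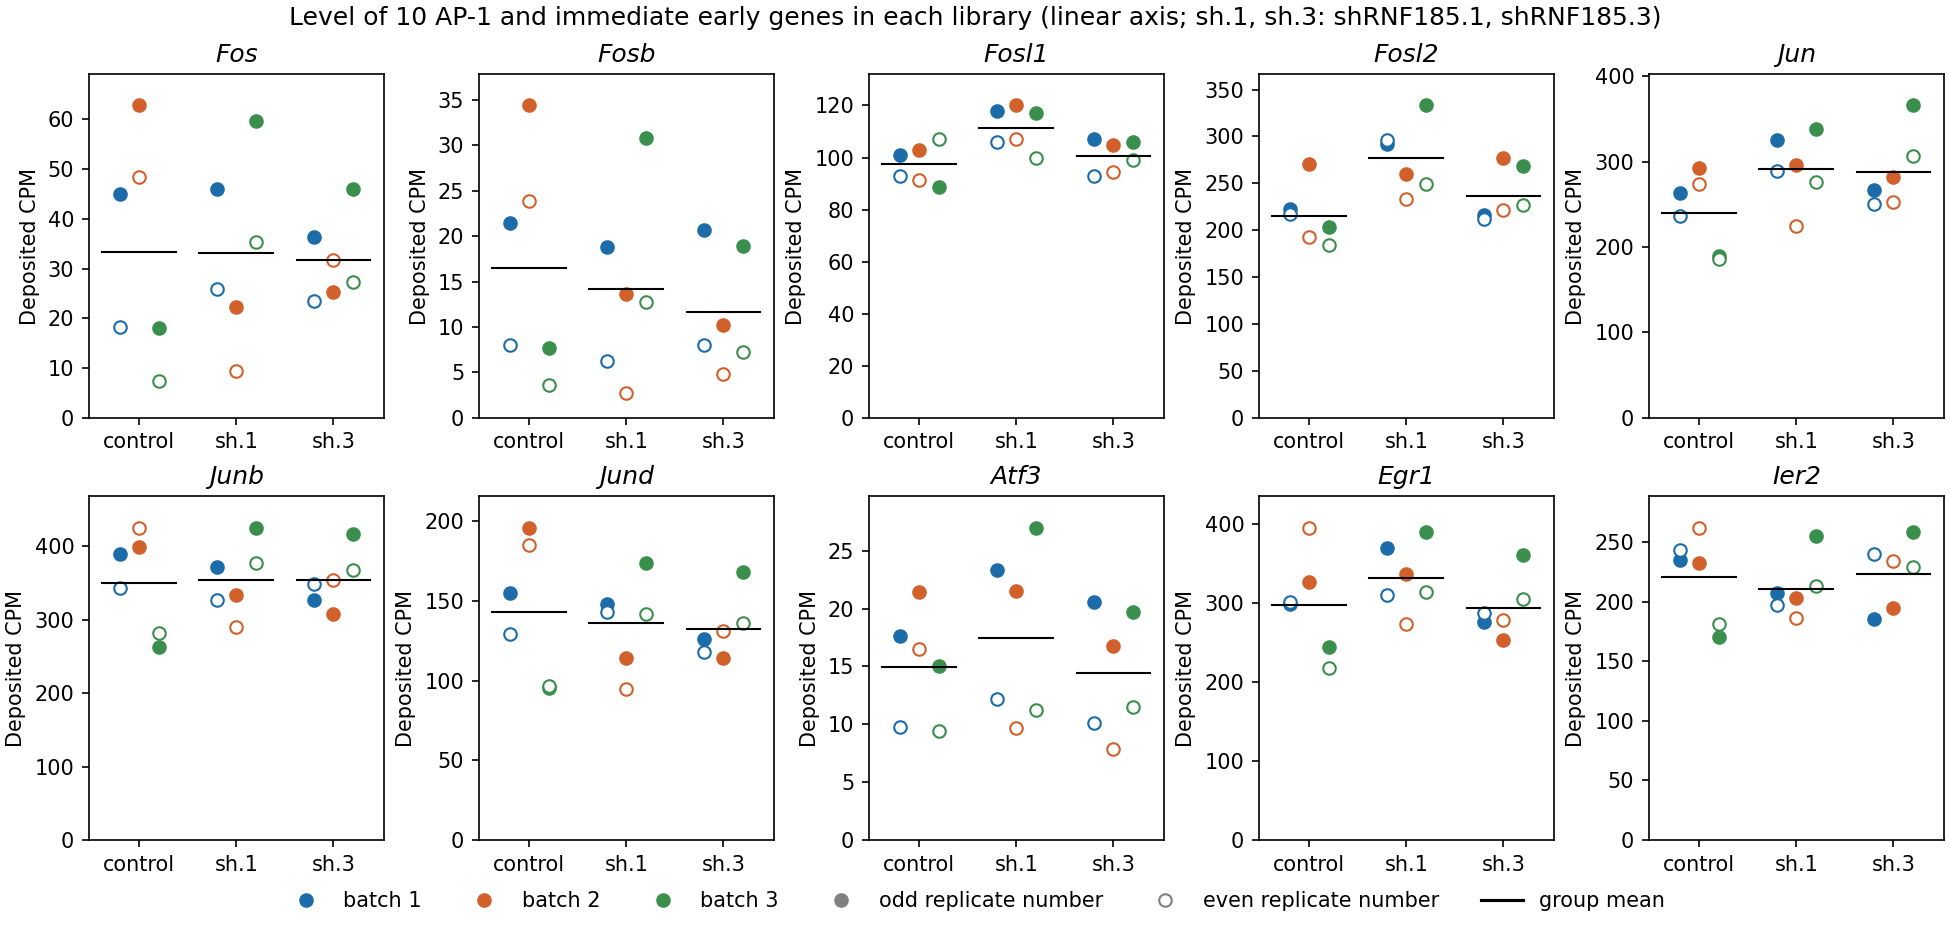
Deposited CPM of the 10 members in each of the 18 libraries, on a linear axis, by group (6 libraries each), with the group mean. Fos spans 7.31 to 62.8 CPM and Fosb 2.75 to 34.4 CPM, whereas Fosl1 lies between 88.8 and 120 CPM in all groups.

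In the comparison of hairpin shRNF185.1 with control, 2 of the 10 members rose and none fell, Fosl1 and Fosl2, at an adjusted p under 0.05 in edgeR's quasi-likelihood test. Of all 14309 genes tested, 28.9% passed in that comparison, 14.6% higher and 14.3% lower. With shRNF185.3, 0 of the 10 members passed, against 27.3% of all genes (14.2% higher, 13.1% lower). Between the hairpins 0 of 10 passed, against 14.7% (7.72% higher, 6.94% lower). At an unadjusted p under 0.05 the counts were 3, 1 and 2, and DESeq2 and limma on log2(CPM + 1) each called 2, 0 and 0. The median log2 fold change of the members was 0.09 with shRNF185.1, against -0.02 over all genes, and -0.00 with shRNF185.3, again against -0.02. Both hairpins are compared with the same 6 control libraries.

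FOS proteins bind DNA as partners of JUN or ATF proteins. Fosl1 (chr19:5447547-5455946, plus strand, GRCm38) encodes FRA-1, the FOS-family protein best known for invasion of carcinoma cells. It ranged from 88.8 to 107 CPM in control (median 97.0), from 100 to 120 with shRNF185.1 (median 112) and from 92.9 to 107 with shRNF185.3 (median 102). The shRNF185.1 libraries were the highest on average but overlapped with both other groups. The log2 fold change with shRNF185.1 was 0.19 (SE 0.06, edgeR adjusted p = 0.0188), a 1.14-fold rise, and it was 0.05 (SE 0.06, adjusted p = 0.565 in edgeR) with shRNF185.3. The call was kept without any single library. It was lost without batch 1 (0.18, adjusted p = 0.145), without batch 2 (0.18, adjusted p = 0.0894) and with an offset for GC content and length (0.16, adjusted p = 0.0930). Of the exonic bases of Fosl1, 57.2% are overlapped by Ccdc85b on the other strand, and the use of strand in counting is not stated, so reads of the pair may be mixed. Ccdc85b itself did not pass with shRNF185.1 (log2 fold change -0.04, edgeR adjusted p = 0.676).

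Fosl2 (chr5:32135801-32157842, plus strand, GRCm38) encodes FRA-2, a further long-lived FOS protein. It ranged from 184 to 271 CPM in control (median 210), from 233 to 333 with shRNF185.1 (median 276) and from 212 to 277 with shRNF185.3 (median 225). Means were 215 ± 30.9, 277 ± 36.9 and 237 ± 27.9 CPM (SD, n = 6), and 1 control library, replicate 3, reached the range of shRNF185.1. It rose 1.29-fold with shRNF185.1 (log2 0.36, SE 0.10, edgeR adjusted p = 0.0103), with a log2 value of 0.14 (SE 0.10, adjusted p = 0.318) for shRNF185.3. Without batch 1 its value was 0.33 (adjusted p = 0.132) and without batch 3 it was 0.26 (adjusted p = 0.143), so each of these ended the call. For both genes the difference between the hairpins missed the threshold, at a log2 value of -0.14 (95% interval -0.27 to -0.02, edgeR adjusted p = 0.125) for Fosl1 and -0.22 (-0.43 to -0.01, adjusted p = 0.169) for Fosl2.

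Fos and Fosb, the serum-inducible members of the family, varied more between libraries of a group than between groups. Fos ranged from 7.31 to 62.8 CPM in control (median 31.6), from 9.42 to 59.6 with shRNF185.1 (median 30.6) and from 23.5 to 46.1 with shRNF185.3 (median 29.5). The range of shRNF185.3 lay inside that of the other groups, and the means were 33.3, 33.1 and 31.7 CPM. The log2 fold change of Fos was -0.01 (SE 0.43, 95% interval -0.90 to 0.88) with shRNF185.1 and -0.07 (SE 0.43, -0.97 to 0.83) with shRNF185.3. The interval for shRNF185.1 corresponds to 0.535 to 1.85 times control, so a change within that range is not excluded. Fosb ranged from 3.67 to 34.4 CPM in control, from 2.75 to 30.8 with shRNF185.1 and from 4.79 to 20.7 with shRNF185.3. Its means were 16.5 ± 11.9, 14.2 ± 9.93 and 11.7 ± 6.59 CPM (SD, n = 6), and the intervals of its fold change spanned 0.394 to 1.86 and 0.321 to 1.54 times control.

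JUN proteins pair with FOS and ATF proteins and also with each other. Jun, the founding member and its own target through the promoter element shown above, ranged from 186 to 293 CPM in control (median 250), from 225 to 339 with shRNF185.1 (median 293) and from 250 to 366 with shRNF185.3 (median 275). Means were higher in both hairpin groups, at 292 ± 40.3 and 288 ± 43.8 CPM against 240 ± 44.6 (SD, n = 6), with overlapping libraries. The log2 values, 0.28 (SE 0.12, edgeR adjusted p = 0.101) and 0.26 (SE 0.12, adjusted p = 0.127), did not pass. With shRNF185.1 Jun passed without control replicate 3 (0.34, adjusted p = 0.0471), without shRNF185.1 replicate 4 (0.35, adjusted p = 0.0378) and without batch 2 (0.49, adjusted p = 0.0117). With shRNF185.3 it passed without batch 2 (0.44, adjusted p = 0.0253). Without batch 3 the log2 value of Jun was 0.09 with shRNF185.1 (edgeR adjusted p = 0.588) and -0.02 with shRNF185.3. Junos, an antisense gene, overlaps 7.3% of the exonic bases of Jun. It rose with shRNF185.1 (log2 0.58, SE 0.19, edgeR adjusted p = 0.0249), from 1.72 ± 0.640 to 2.61 ± 0.439 CPM (SD, n = 6), and its reads may likewise be mixed with those of Jun.

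Junb, known to oppose Jun in proliferation, had means of 350 ± 65.7, 354 ± 46.8 and 353 ± 36.9 CPM in control, shRNF185.1 and shRNF185.3 (SD, n = 6). Its fold change lay between 0.855 and 1.19 times control with shRNF185.1 and between 0.857 and 1.19 with shRNF185.3 (95% intervals). Jund, the member that is least inducible by serum, had means of 143 ± 43.2, 136 ± 27.7 and 132 ± 19.2 CPM. Its intervals spanned 0.739 to 1.23 and 0.719 to 1.19 times control. Prdx2 and Gm11175 overlap 7.5% and 52.6% of the exonic bases of Junb and Jund on the other strand, so part of these levels is uncertain.

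Atf3, a stress-induced ATF protein that can repress AP-1 targets, ranged from 9.41 to 21.4 CPM in control, from 9.69 to 27.0 with shRNF185.1 and from 7.84 to 20.6 with shRNF185.3. Its log2 values were 0.23 (SE 0.29) and -0.05 (SE 0.29), and the 3 groups overlapped. Egr1, a zinc finger factor induced through ERK signalling, had means of 297 ± 62.5, 332 ± 42.3 and 293 ± 37.1 CPM (SD, n = 6). Its log2 values were 0.16 (SE 0.12) with shRNF185.1 and -0.02 (SE 0.12) with shRNF185.3, and without batch 2 it passed with shRNF185.1 at 0.38 (edgeR adjusted p = 0.0235). Ier2, a serum-induced gene with a nuclear product, had means of 221 ± 36.5, 210 ± 23.7 and 224 ± 28.1 CPM. Its log2 values were -0.07 (SE 0.11) and 0.02 (SE 0.11), and without batch 3 it passed as lower with shRNF185.1 at -0.29 (edgeR adjusted p = 0.0231).

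**Figure D2:**
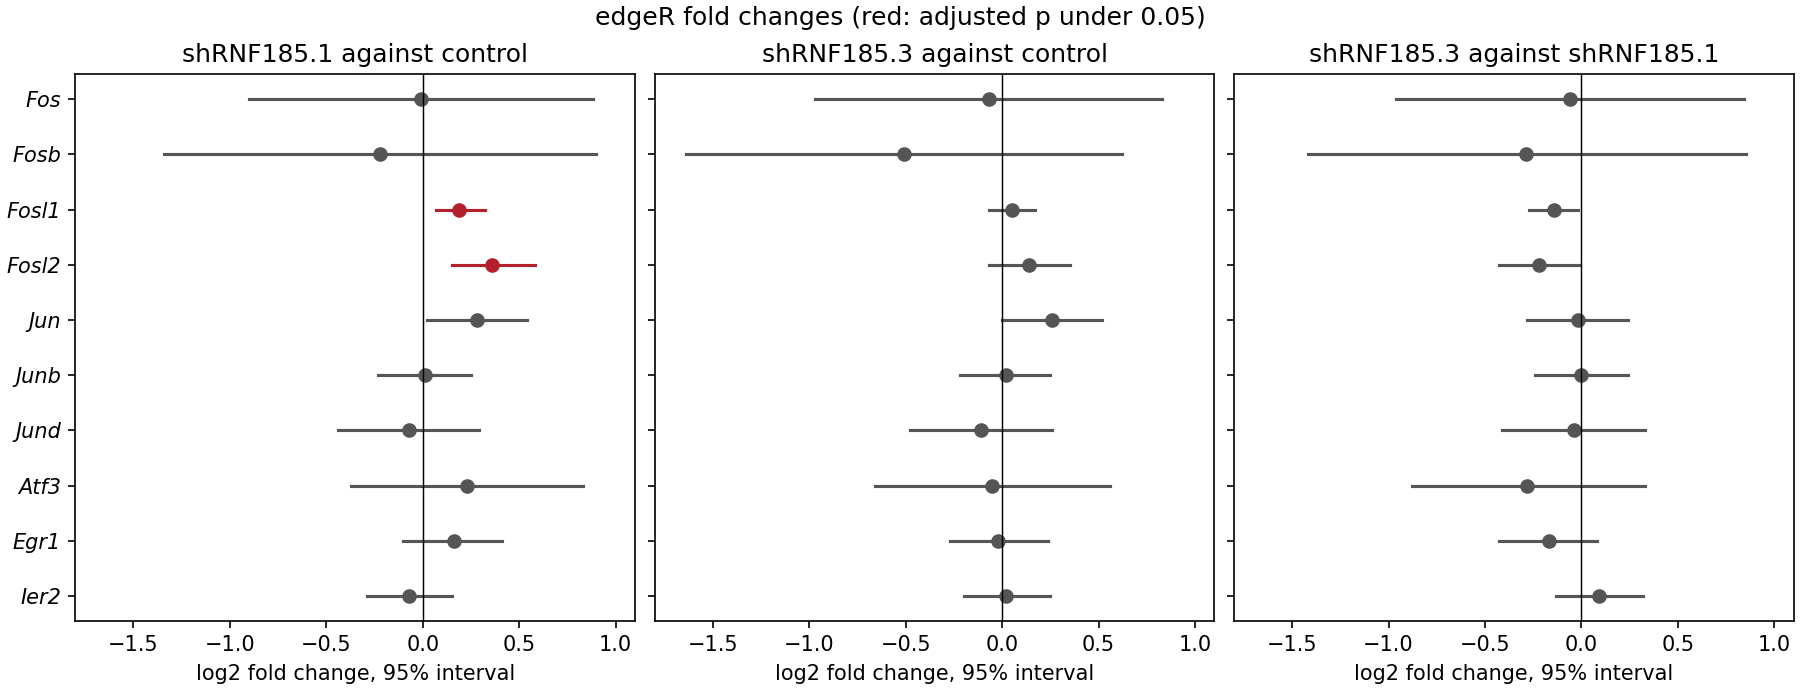
Log2 fold change of each member for shRNF185.1 and shRNF185.3 against control, with 95% intervals from edgeR's quasi-likelihood fit over 18 libraries. The intervals of Fosl1 (0.07 to 0.32) and Fosl2 (0.15 to 0.58) lie above 0 for shRNF185.1, as does that of Jun (0.02 to 0.54), which did not pass after adjustment, and those of Fos and Fosb are the widest.

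The members ran in opposite directions in different batches. In batch 3, the means of all 10 members were higher with each hairpin than in control, by a median log2 difference of 0.63 for shRNF185.1 (0.15 to 1.94) and 0.53 for shRNF185.3 (0.06 to 1.53). In batch 2, 8 of 10 were lower with each hairpin, by medians of -0.31 and -0.38. In batch 1, 7 were higher with shRNF185.1 and 3 with shRNF185.3. Fos, Junb and Jund were lower in both libraries of each hairpin than in both control libraries in batch 2, and higher in batch 3. The share of all genes with these patterns within batches was not computed. The control libraries of Fos averaged 31.6, 55.6 and 12.7 CPM over batches 1 to 3. The shRNF185.1 libraries averaged 36.0, 15.9 and 47.5 CPM and the shRNF185.3 libraries 29.9, 28.5 and 36.7 CPM. For Fos, control was the highest group in batch 2 and the lowest in batch 3. The mean of all 6 libraries of a batch was 32.5, 33.3 and 32.3 CPM. The deposited table is adjusted for batch, so a high control and low hairpin libraries within a batch cannot be told apart.

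The difference between batches in the effect of a hairpin was tested as an interaction of group and batch in edgeR. Between batches 3 and 2 it passed for 7 of 10 members with shRNF185.1, against 19.2% of all genes, and for 6 of 10 with shRNF185.3, against 10.7%. All these differences were positive. The effect of shRNF185.1 differed by 3.72 on the log2 scale for Fos (adjusted p = 0.00473), 3.78 for Fosb (adjusted p = 0.0321), 1.58 for Jund (adjusted p = 0.000244), 0.96 for Junb (adjusted p = 0.00157) and 0.83 for Jun (adjusted p = 0.0101). Jund averaged 142, 191 and 96.1 CPM in control over batches 1 to 3, and 146, 105 and 158 CPM with shRNF185.1. Between batches 3 and 1, 0 of 10 members passed with shRNF185.1 (0.189% of all genes; 4 at an unadjusted p under 0.05) and 1, Jund, with shRNF185.3 (1.43%). Between batches 2 and 1, Jund passed with shRNF185.1 (8.17% of all genes) and 0 of 10 with shRNF185.3 (0.0% of all genes; 1 member at an unadjusted p under 0.05). Each batch holds 2 libraries of a group, both hairpins share its control libraries, and these tests were chosen after the values per library were seen. Fosl1, Fosl2 and Atf3 passed in none of them. Fosl1 kept the same sign in every batch, at log2 differences of 0.21, 0.22 and 0.15 for shRNF185.1 over batches 1 to 3. For shRNF185.3 they were 0.04, 0.04 and 0.06.

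**Figure D3:**
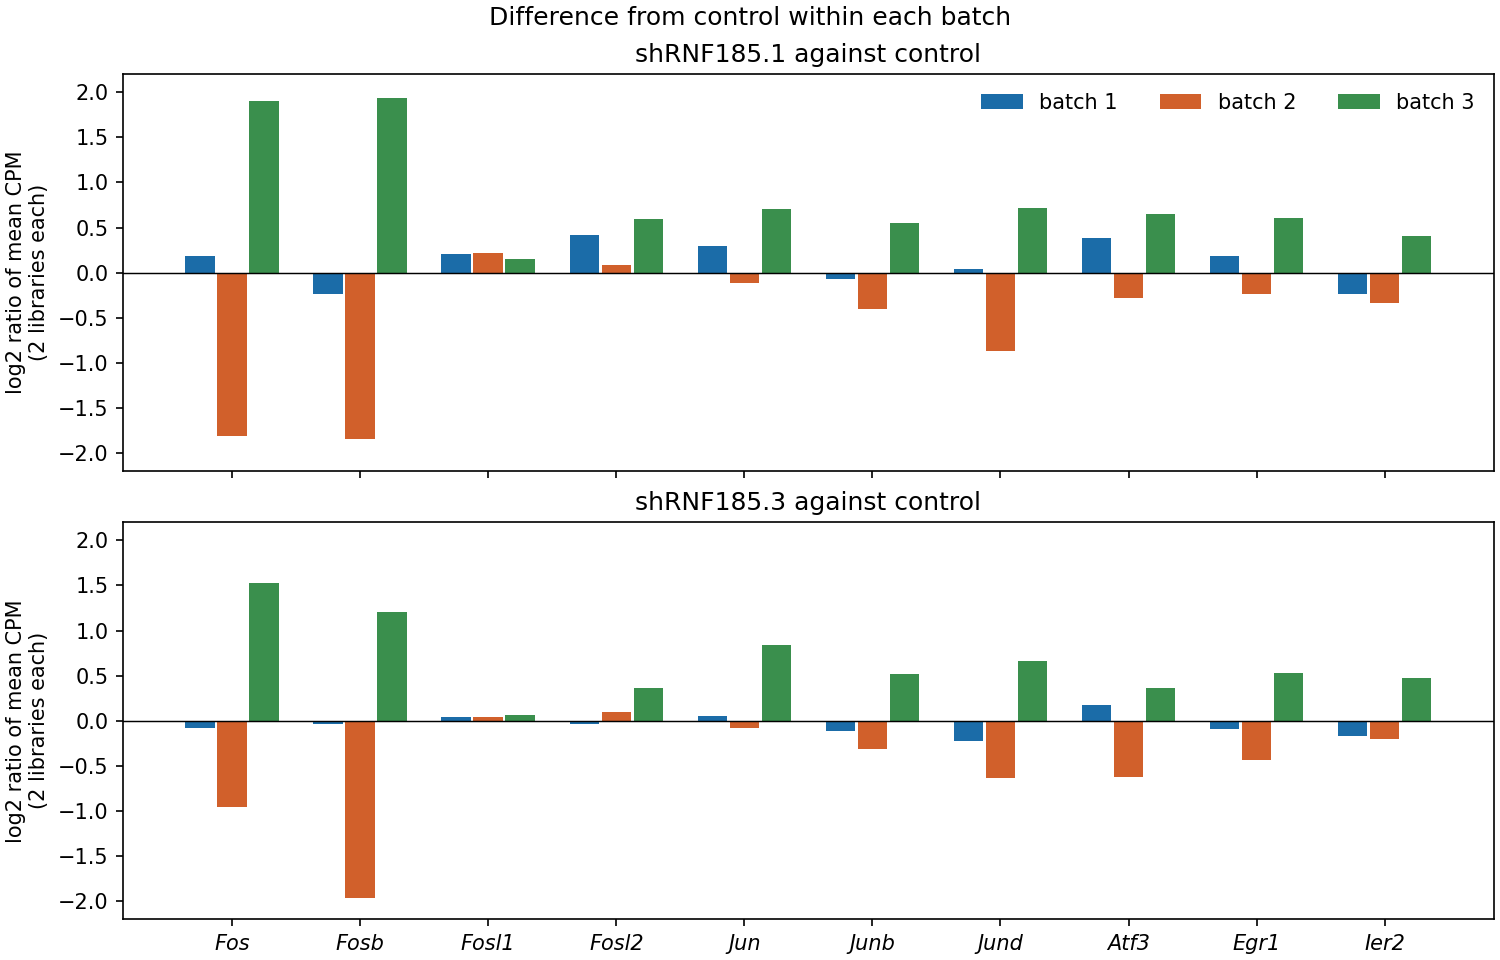
Log2 difference of mean CPM between each hairpin and control within batches 1, 2 and 3, for each member (2 libraries of a group in each batch). All 10 members lie above 0 in batch 3 for both hairpins, and 8 of 10 lie below 0 in batch 2. The share over all genes was not computed.

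A further pattern ran along replicate numbers. In each of the 9 combinations of group and batch, the odd-numbered library (1, 3 or 5) was compared with the even-numbered one. The odd library was higher in 9 of 9 pairs for Fosb, by a median of 2.57-fold, for Atf3, by 1.91-fold, and for Jun, by 1.11-fold. Over all genes, 5.47% were higher and 4.88% lower in the odd library of all 9 pairs. The log2 differences ran from 0.53 to 2.27 for Fosb, from 0.38 to 1.26 for Atf3 and from 0.03 to 0.40 for Jun. Fos was higher in the odd library in 8 of 9 pairs (median 1.69-fold, log2 range -0.33 to 1.3), as were Fosl1 and Fosl2. Jund was higher in 7 pairs, Junb and Egr1 in 5 each and Ier2 in 4. With odd or even number as a covariate the same members, Fosl1 and Fosl2, passed with shRNF185.1 and 0 with shRNF185.3. The labels do not say what odd and even numbers stand for.

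**Figure D4:**
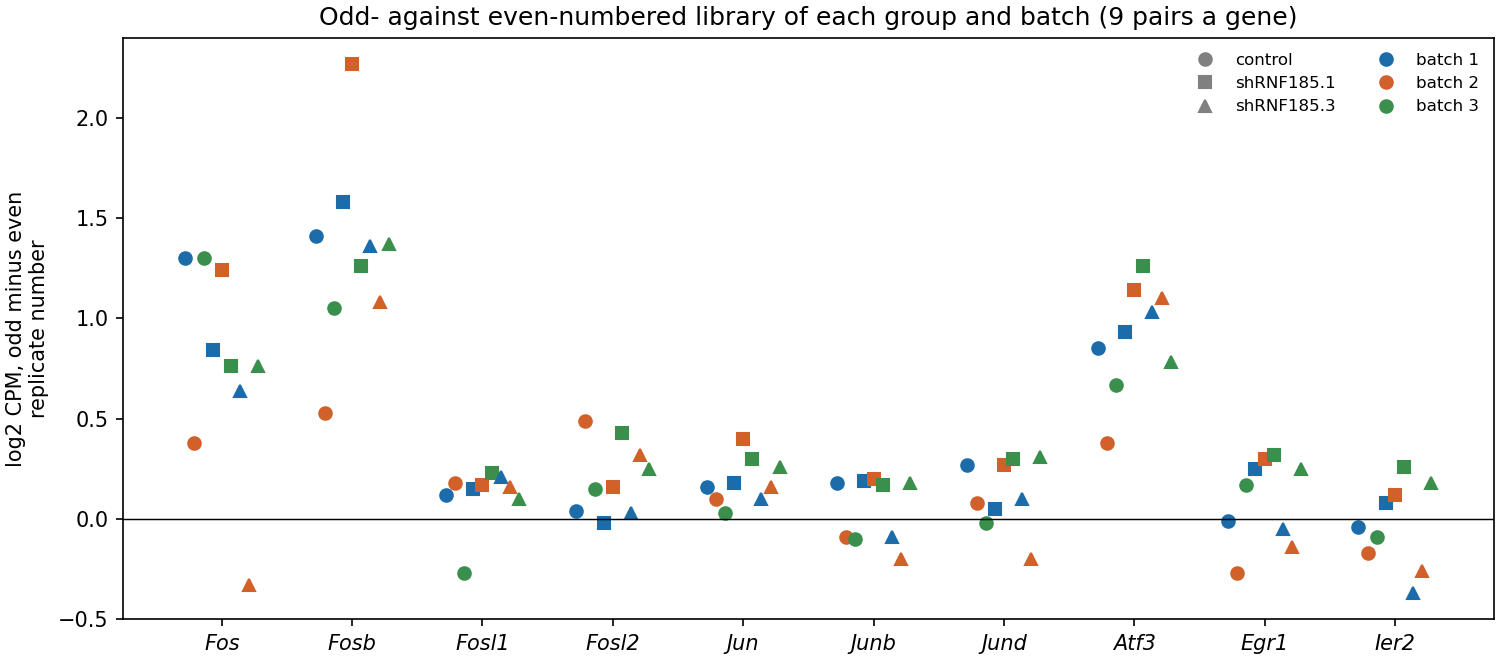
Log2 difference between the odd- and the even-numbered library of each of the 9 group and batch pairs, for each member. All 9 pairs lie above 0 for Fosb, Atf3 and Jun, and 4 of 9 do for Ier2.

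The spread of the members within groups covered a wide range. The within-group SD of log2 CPM was 1.11 for Fosb and 0.89 for Fos, at percentiles 98.8 and 98.2 of the 14309 genes, whose median was 0.16. Atf3 followed at 0.56 (percentile 94.9) and Jund at 0.34 (81.7). Jun (0.23), Egr1 (0.23), Junb (0.21), Ier2 (0.20) and Fosl2 (0.19) lay between percentiles 58.6 and 68.5. Fosl1, at 0.10, was the steadiest member, at percentile 22.6.

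The relation of Fos to 6 other members was tested across libraries. Over 18 libraries, deviations of log2 CPM from the group mean correlated between Fos and Fosb at r = 0.91 (Spearman's rho 0.83, permutation p = 1e-05, the smallest that 100000 permutations can give, adjusted p = 6e-05). Without the 2 libraries farthest from the median of Fos, control replicate 6 and shRNF185.1 replicate 4, r was 0.84, and within batches 1, 2 and 3 it was 0.84, 0.88 and 0.98. Jun followed Fos at r = 0.85 (rho 0.82, permutation p = 5e-05, adjusted p = 0.00015), with 0.76 without those 2 libraries and 0.76, 0.92 and 0.82 within batches. Junb also stood at r = 0.85 (rho 0.87, permutation p = 0.00016, adjusted p = 0.00032), with 0.82 without them and 0.64, 0.93 and 0.85 within batches. Egr1 stood at r = 0.82 (rho 0.74, permutation p = 0.00023, adjusted p = 0.00034), with 0.70 without them and 0.46, 0.82 and 0.90 within batches. Atf3 stood at r = 0.68 (rho 0.64, permutation p = 0.0013, adjusted p = 0.0016), with 0.58 without them and 0.86, 0.60 and 0.72 within batches. Ier2 was the loosest of these 6, at r = 0.64 (rho 0.59, permutation p = 0.011, adjusted p = 0.011), with 0.53 without them. Within batches Ier2 stood at -0.23, 0.79 and 0.85, so its relation to Fos did not hold in batch 1. With deviations taken from the mean of each group and batch, r was 0.88 for Fosb, 0.80 for Atf3, 0.77 for Jun, 0.63 for Egr1, 0.57 for Junb and 0.10 for Ier2. Each group and batch holds an odd- and an even-numbered library, so these values restate the odd and even differences above. Fos was higher in the odd library in 8 of 9 pairs, and Fosb, Atf3 and Jun in 9 of 9. The other r values also contain this difference, and a relation apart from it was not tested. Of the 3 members outside these 6 relations, Jund stood at r = 0.91 to Fos, Fosl2 at 0.63 and Fosl1 at 0.12, given as a description. These relations share libraries and depth, and libraries of the same group and batch deviated together, so the permutation p-values may be too small.

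The genes most like each member were found by r of the same deviations over 18 libraries among 9671 genes. For Fos they were Mgp (0.98), encoding matrix Gla protein, and Ifitm1 (0.97), and for Fosb Anxa8 and Jam2 (0.95 each). For Jun they were Zfp316 (0.97) and Tns1 (0.96), for Junb Bcl3 (0.98) and Btbd2 (0.97), and for Jund Ltbp3 (0.98) and Calcoco1 (0.97). For Atf3 they were Ctns and Brd1 (0.95 each), for Egr1 Arhgef11 and Numb (0.94 each) and for Ier2 Irf1 and Lrpap1 (0.94 each). Fosl2 was most like Phldb2 and Trim2 (0.94 each), and Fosl1 most like Map3k6 (0.89) and Slco2a1 (0.87). An r of at least 0.8 was shared with Fos by 557 genes (5.76%), with Jund by 699 (7.23%) and with Fosl1 by 8 (0.0827%). No member was among the 2 genes most like another.

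Around the members, 4 lists of pathway genes were counted by the same edgeR calls. Of 45 other immediate early genes tested, 8 rose and 5 fell with shRNF185.1, and 8 rose and 4 fell with shRNF185.3. That is 28.9% and 26.7% of the list, beside 28.9% and 27.3% of all genes. Without batch 2, 22 were called with shRNF185.1 in place of 13, beside 5119 in place of 4141 over all genes. With shRNF185.3 the 12 became 7 without batch 1 and 7 without batch 3. Over all genes, the 3906 became 2120 and 2501. Arc, a neuronal activity gene, averaged 7.94 ± 1.04 CPM in control and 15.9 ± 3.41 and 16.5 ± 2.53 CPM in the hairpin groups (SD, n = 6). Its control libraries, at 6.23 to 8.92, lay below all hairpin libraries, and it rose by log2 1.00 and 1.06 (edgeR adjusted p = 1.84e-05 and 1.03e-05). Dusp1, a phosphatase that inactivates MAP kinases, averaged 47.5 ± 20.5, 86.6 ± 30.8 and 79.6 ± 20.0 CPM with overlapping groups, and rose by log2 0.87 and 0.75 (adjusted p = 0.0221 and 0.0488). Per2, a circadian repressor, rose by log2 0.58 and 0.81 from 28.1 ± 2.56 CPM. Plk2, Ptgs2, Klf10 and Zfp36l2 fell with both hairpins.

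Of 24 upstream kinases and regulators, 8 rose and 4 fell with shRNF185.1, and 3 rose and 5 fell with shRNF185.3. That is 12 and 8 of the 24, beside 28.9% and 27.3% of all genes. Without batch 1 the 12 and 8 calls became 6 and 5, while those over all genes went from 4141 and 3906 to 2207 and 2120. Creb1, which encodes a factor bound at CRE sites, averaged 51.8 ± 6.07, 38.4 ± 1.81 and 26.8 ± 1.87 CPM in control, shRNF185.1 and shRNF185.3 (SD, n = 6), and the 3 groups did not overlap. It fell with both (log2 -0.43 and -0.94) and was lower with shRNF185.3 than with shRNF185.1 (log2 -0.52, edgeR adjusted p = 3.37e-05). Crem, a related CRE-binding factor, rose by log2 0.58 and 0.70 from 4.27 ± 0.481 CPM, and Rps6ka1, encoding the kinase RSK1, fell (log2 -0.29 and -0.45). Between the hairpins 7 of the 24 were lower with shRNF185.3 and none was higher, a share of 29.2% against 14.7% of all genes. Those 7 calls became 3 with libraries summed, 1 without batch 1, 2 without batch 2 and 4 without batch 3. They became 11 when GC content and length were offset. Over all genes, the 2098 calls between the hairpins became 753 without batch 1, 1208 without batch 2 and 1794 without batch 3.

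Of 14 other bZIP partners tested, of 18 listed, 5 rose and 1 fell with shRNF185.1, and 5 rose and 2 fell with shRNF185.3. That is 6 and 7 of the 14, beside 28.9% and 27.3% of all genes. Without batch 1 the 7 calls with shRNF185.3 became 4, while those over all genes went from 3906 to 2120. Jdp2, a repressor that dimerises with JUN proteins, averaged 11.5 ± 1.43, 15.8 ± 1.01 and 18.1 ± 1.04 CPM (SD, n = 6), with control libraries below all others. It rose by log2 0.45 and 0.65 (edgeR adjusted p = 0.000164 and 3.05e-06). Atf2, a JUN partner activated by stress kinases, fell from 61.2 ± 4.68 CPM (log2 -0.37 and -0.51), and Nfe2l1 rose by log2 0.29 and 0.27 from 258 ± 24.9 CPM. Nfe2l2, encoding NRF2, was called higher with shRNF185.1 and lower with shRNF185.3.

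Of 28 tested genes known as AP-1 targets, of 30 listed, 4 rose and 6 fell with shRNF185.1, and 3 rose and 8 fell with shRNF185.3. The share called was 35.7% and 39.3%, beside 28.9% and 27.3% of all genes, and the median log2 fold change was -0.11 and -0.27, beside -0.02 over all genes for each. The 10 calls with shRNF185.1 became 3 with libraries summed, 4 without batch 1, 5 with only the compared groups fitted, 6 with the batch covariate and 6 without a filter. The 11 with shRNF185.3 became 6 with libraries summed and 6 without batch 1. Areg, an EGF-receptor ligand, averaged 17.3 ± 3.75, 5.27 ± 1.27 and 3.73 ± 1.00 CPM (SD, n = 6) and fell (log2 -1.71 and -2.21, edgeR adjusted p = 1.3e-06 and 1.01e-07), with no hairpin library as high as any control library. Sparc, a matrix glycoprotein, rose from 916 ± 42.9 to 1225 ± 106 and 1472 ± 141 CPM, by log2 0.42 and 0.69. Lif, a cytokine, fell from 46.5 ± 11.6 CPM (log2 -0.40 and -0.41, adjusted p = 0.0454 and 0.0437 in edgeR). Hbegf, a second EGF-receptor ligand, and the transcription factor gene Ets1 also fell with both hairpins. Of the 5 epithelial markers tested, Cdh1, Krt8 and Krt18 fell with both hairpins, Cdh1 from 35.0 ± 12.8 CPM to 9.30 ± 3.43 and 7.99 ± 2.0 CPM (SD, n = 6), and the mesenchymal markers Col1a1 and Pdgfrb rose with both. Their part in the counts of this list was not tested. Krt14 belongs to both lists. Without batch 1, the listed genes called over the 4 lists numbered 27 with shRNF185.1 and 22 with shRNF185.3, against 41 and 38 with all libraries. Over all genes they numbered 2207 and 2120, against 4141 and 3906.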

How the data were processed

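RNA-seq was measured in 18 libraries of MPC3 cells. Per the labels' protocols, polyadenylated RNA was made into strand-specific libraries (NEBNext directional kit) and read as single-end 75-base reads. The submitters' processing notes name cutadapt 2.3, STAR 2.7.0d, RSEM 1.3.1 and the build mm10. The authors deposited estimated counts and a CPM table, adjusted for batch by ComBat-Seq per the tables' names. Whether it was given the groups, and whether counting used strand, is not given in the sources used here. Of the deposited estimated counts 0.466% were not whole, none of them a member's, and they were rounded. The planned design was for whole counts and stayed in use. The deposited CPM are a scaled signal: each column equals the counts divided by a TMM-scaled library size, with column sums of 969986 to 1026394.

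Counts were tested with edgeR 4.0.16 in R 4.3.3: filterByExpr with a minimum count of 10 (14309 genes), TMM, a mean per group over all 18 libraries, the quasi-likelihood F test, Benjamini-Hochberg adjustment over all genes tested and a call at an adjusted p under 0.05. Intervals are 95% from the standard error of the fit. On simulated counts of 14267 genes for shRNF185.1 against control, the test recovered 36%, 80%, 90% and 100% of genes changed 1.25-, 1.5-, 2- and 3-fold, with 11 false among 164 calls. The simulated libraries were independent, with 50 genes changed at each fold and no deviations shared by a group and batch. These rates therefore need not hold for the deposited data. DESeq2 1.42.0 and limma 3.58.1, on log2(CPM + 1), were alternatives, with other scalings, no filter, batch or replicate terms, a GC and length offset, summed pairs of libraries, and batches or libraries left out. The interaction of group and batch and the odd or even covariate were chosen after the values per library were seen.

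Symbols came from a table that matched 99.1% of identifiers, and positions and lengths are those of GENCODE M21 on GRCm38. No 75-base exonic window of a member occurs in another gene. Correlations used log2 CPM with a prior count of 2, two-sided permutation within groups (100000) and adjustment over 6 relations. The members and gene lists were chosen with earlier results of these data known. All 10 members are named. From each list the 3 genes named had the largest change called in the same direction with both hairpins, by the smaller of both fold changes, with a mean count of at least 50. Other list genes were named after their values were seen. For each member the 2 genes with the highest r, among genes whose log2 CPM averaged 3 or more, are named. Some prostate luminal markers are not reported here.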

Additional observations from a re-analysis of the deposited data

Results flagged for a closer look

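The effect of a hairpin differed between batches by the edgeR interaction test for 15 combinations of member (10), hairpin (2) and pair of batches (3). Over all genes, 19.2% passed between batches 3 and 2 with shRNF185.1 and 10.7% with shRNF185.3. Between batches 2 and 1 with shRNF185.1 it was 8.17%, and between batches 3 and 1 with shRNF185.3 it was 1.43%. For shRNF185.1, batch 3 minus batch 2 gave a log2 difference of 3.78 for Fosb, 3.72 for Fos, 1.58 for Jund, 0.96 for Junb, 0.85 for Egr1, 0.83 for Jun and 0.76 for Ier2, with adjusted p from 0.000244 for Jund to 0.0321 for Fosb. For shRNF185.3 the same difference was 2.50 for Fos, 1.29 for Jund, 0.97 for Egr1, 0.93 for Jun, 0.84 for Junb and 0.68 for Ier2, with adjusted p from 0.00165 for Jund to 0.0452 for Fos. Jund also differed between batches 2 and 1 with shRNF185.1 (-0.91, adjusted p = 0.0143) and between batches 3 and 1 with shRNF185.3 (0.87, adjusted p = 0.0378). Each batch holds 2 libraries of a group, and both hairpins share its control libraries. In the 30 groups of 6 libraries (10 members, 3 groups) no library stood apart by Dixon's test, where chance gives about 1.5.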

How the results depend on the processing

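The members had at least 71 counts in every library, and what depth limits was not tested. With shRNF185.1, 2 members were called, 0 without batch 1 and 1 (Fosl2) with the GC and length offset. With shRNF185.3, 0 were called, and 1 (Jun) without batch 2. Between the hairpins 0 were called, 1 (Fosl1) with libraries summed and 1 (Fosl2) without batch 2. Genes of the 4 lists called numbered 41, 38 and 18 in the 3 comparisons. Without batch 1 they were 27, 22 and 7. Between the hairpins they were 8 without batch 2, 28 with the GC and length offset and 28 with the odd or even covariate, which was added after seeing the data. Over all genes, 4141, 3906 and 2098 were called, and 2207, 2120 and 753 without batch 1. They were 2501 for shRNF185.3 without batch 3 and 1208 between the hairpins without batch 2. Without batch 2, shRNF185.1 against control gave 5119 genes, 49 of the listed genes and 22 of the other immediate early genes (13 with all libraries). The causes were not tested.

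Same-numbered libraries of different groups had a mean correlation of -0.0144, and 4 of 18 pairs were over 0.1, so this check does not pair the libraries by number. It sits beside the odd and even difference in the report, which for Fosb, Atf3 and Jun follows the numbers in all 3 groups, and the numbers also define the batches. The replicate block gave the same 2, 0 and 0 members, and 2 of 18 libraries correlated best with their own number.

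Of 960 recomputed fold changes of members, 861 kept direction and side of the threshold, 8 newly passed, 5 no longer passed and 86 changed sign, all in comparisons where the member was not called. The cause was not tested. For shRNF185.1 against control the log2 fold change of Fos became 0.02 with library size alone, 0.10 in limma, 0.01 with the batch covariate, 0.04 with the replicate block and 0.03 with libraries summed. Without batch 2 it was 0.92 for Fos, 0.75 for Fosb, 0.35 for Jund and 0.07 for Ier2, without batch 3 it was -0.24 for Junb and -0.04 for Egr1, without batch 1 it was 0.02 for Ier2, and with the GC and length offset -0.02 for Junb. For shRNF185.3 against control it was 0.21 for Fos in limma and 0.00 for Egr1 with library size alone. Without batch 2 it was 0.59 for Fos, 0.43 for Fosb, 0.20 for Jund, 0.26 for Atf3 and 0.21 for Egr1. Without batch 3 it was -0.02 for Jun, -0.21 for Junb and -0.18 for Ier2, and without batch 1 it was 0.02 for Egr1. The GC and length offset gave -0.00 for Fosl1, -0.05 for Junb and -0.03 for Ier2. Between the hairpins, Fos stood at 0.10 in limma, 0.04 without batch 1 and 0.17 without batch 3, and Fosb at 0.07 without batch 3. Without batch 1, Jun stood at 0.09 and Jund at 0.07. Junb stood at -0.00 with library size alone, -0.01 without a filter, -0.04 without batch 2 and -0.04 with the GC and length offset.

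Leaving out each library in turn, shRNF185.1 against control ran from -0.26 to 0.27 for Fos, -0.61 to 0.12 for Fosb, -0.06 to 0.08 for Junb and -0.16 to 0.04 for Jund. For shRNF185.3 it ran from -0.28 to 0.20 for Fos, -0.05 to 0.08 for Junb, -0.20 to 0.00 for Jund, -0.18 to 0.08 for Atf3, -0.09 to 0.08 for Egr1 and -0.04 to 0.08 for Ier2. Between the hairpins it ran from -0.26 to 0.19 for Fos, -0.53 to 0.10 for Fosb, -0.10 to 0.03 for Jun, -0.05 to 0.06 for Junb and -0.13 to 0.04 for Jund.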
